A study of Homo sapiens with 16 samples.

Results

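The responses of AsPC-1 cells to ICG-001 and to knockdown of CTNNB1 were set against each other, gene by gene. AsPC-1 is a human pancreatic adenocarcinoma cell line. For each gene the log2 change between ICG-001 and DMSO at 24 h was placed beside the log2 change between CTNNB1 siRNA and control siRNA at 48 h, each taken against the control of its own experiment. The comparison used 10 of the 16 arrays of the series and all 5250 genes with a named probe set. The groups were cells given 10 µM ICG-001 for 24 h (3 arrays), cells given DMSO, the vehicle, for 24 h (3 arrays), cells transfected with 20 nM CTNNB1 siRNA (2 arrays) and cells transfected with 20 nM control siRNA (2 arrays), both read at 48 h. All groups were kept in the same serum-containing medium, and both siRNA groups received the same transfection reagent. The remaining 6 arrays, with ICG-001 or DMSO at 6 h, gave a further readout: their levels did not sort the genes, though they shared the normalization and the estimate of spread.

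β-catenin, the product of CTNNB1, joins cadherins at cell junctions and also carries the canonical Wnt signal. Without Wnt it is marked for degradation by a complex of APC, AXIN and the kinases GSK3 and CK1; with Wnt it enters the nucleus, binds TCF/LEF factors and recruits coactivators such as CBP and p300 to target genes. ICG-001 is a small molecule described to bind CBP and to block its contact with β-catenin, while leaving that of p300. An siRNA against CTNNB1 lowers β-catenin itself, so it removes the signal to both coactivators and the junction protein as well. Each agent was used at a single dose in a single cell line.

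No probe set assigned to CTNNB1 alone was among those analysed here, nor one for EP300, AXIN2, MYC or CCND1, so the extent of the knockdown was not checked on its target. The deposited table held only probe sets that varied over the 16 arrays, with a coefficient of variation of at least 0.40. Drug and siRNA differed in time (24 h and 48 h), in transfection and in experiment, and these cannot be told apart from the agent in a difference between the 2 changes. The starting levels differed too: the DMSO mean lay at least 4-fold above the control siRNA mean for 235 genes and at least 4-fold below it for 294. Replicates are termed biological in the labels, which do not say that they were separate cultures, so p-values measure the spread between these arrays, which may be technical. The arrays measured RNA pooled from whole cultures, in which fewer expressing cells and less RNA per cell cannot be told apart. Of 20 duct and epithelial markers 10 were measured, namely KRT7, KRT19, CDH1, CFTR, MUC1, MUC4, MUC5AC, CLDN3, CLDN7 and S100P. CDH1 was dim on the siRNA arrays. The summed intensity of those 10 was 6708 to 7513 with DMSO and 3840 to 4283 with control siRNA, whereas that of 3 endothelial markers was at most 70.1 and that of 2 leukocyte markers at most 40.6 on any of the 10 arrays. The duct sum was 13902 to 14049 with ICG-001 and 2829 to 2853 with CTNNB1 siRNA. Its members did not move together, as 3 of the 10 rose and 3 fell with each agent. The part of such shifts in other results was not tested. Of 14 acinar markers 2 were measured, PRSS2 and GP2, with a sum of 4669 to 5289 with DMSO, 7964 to 8424 with ICG-001, 2079 to 2181 with control siRNA and 1690 to 1726 with CTNNB1 siRNA. PRSS2 fell with the siRNA (-0.46, adjusted p 2.61e-04); its drug change of 0.11 was not called, but in the deposited scaling it was (0.72, adjusted p 5.60e-10). Of 5 fibroblast markers the sum was 160 to 435 over these arrays. No fibroblast, endothelial or leukocyte marker was called with either agent, except that ACTA2 rose with the siRNA in the deposited scaling (0.46, adjusted p 0.0222).

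A gene was called when its change passed an adjusted p of 0.05 (limma, Benjamini-Hochberg over all 5250 genes). ICG-001 called 1076 genes, which is 20.5% of those tested, with 484 risen (9.22%) and 592 fallen (11.3%). The siRNA called 631 genes (12%), with 325 risen (6.19%) and 306 fallen (5.83%). The split with ICG-001 depended on how arrays were scaled. Values on all arrays were brought to a common distribution (quantile normalization), and in the scaling as deposited the median drug change of all genes moved from -0.02 to 0.09, and the drug calls became 738 risen and 385 fallen. For the siRNA the deposited scaling gave 264 risen and 213 fallen. The common distribution widened siRNA changes, whose median absolute size was 0.22, against 0.18 to 0.19 in 3 other scalings, so values in the deposited scaling are given beside named genes whose call or direction turned with it.

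Genes then fell into 4 classes. Both agents called 343 genes (6.53%). Moved alike were 228 genes called in both comparisons with the same sign (4.34% of all genes), of which 102 rose and 126 fell. Opposite directions were taken by 115 genes (2.19%), of which 54 rose with ICG-001 and fell with the siRNA and 61 did the reverse. A gene was assigned to 1 agent alone only if the other agent did not call it and the difference between the 2 changes was itself called. The difference, drug change minus siRNA change, was called for 835 genes (15.9%; positive for 7.16% and negative for 8.74%). ICG-001 alone moved 426 genes (8.11%; 193 up and 233 down), and CTNNB1 siRNA alone moved 147 (2.8%; 91 up and 56 down). Another 307 drug genes and 141 siRNA genes had no called difference and remained unassigned, and 3886 genes were called by neither agent.

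**Figure D1:**
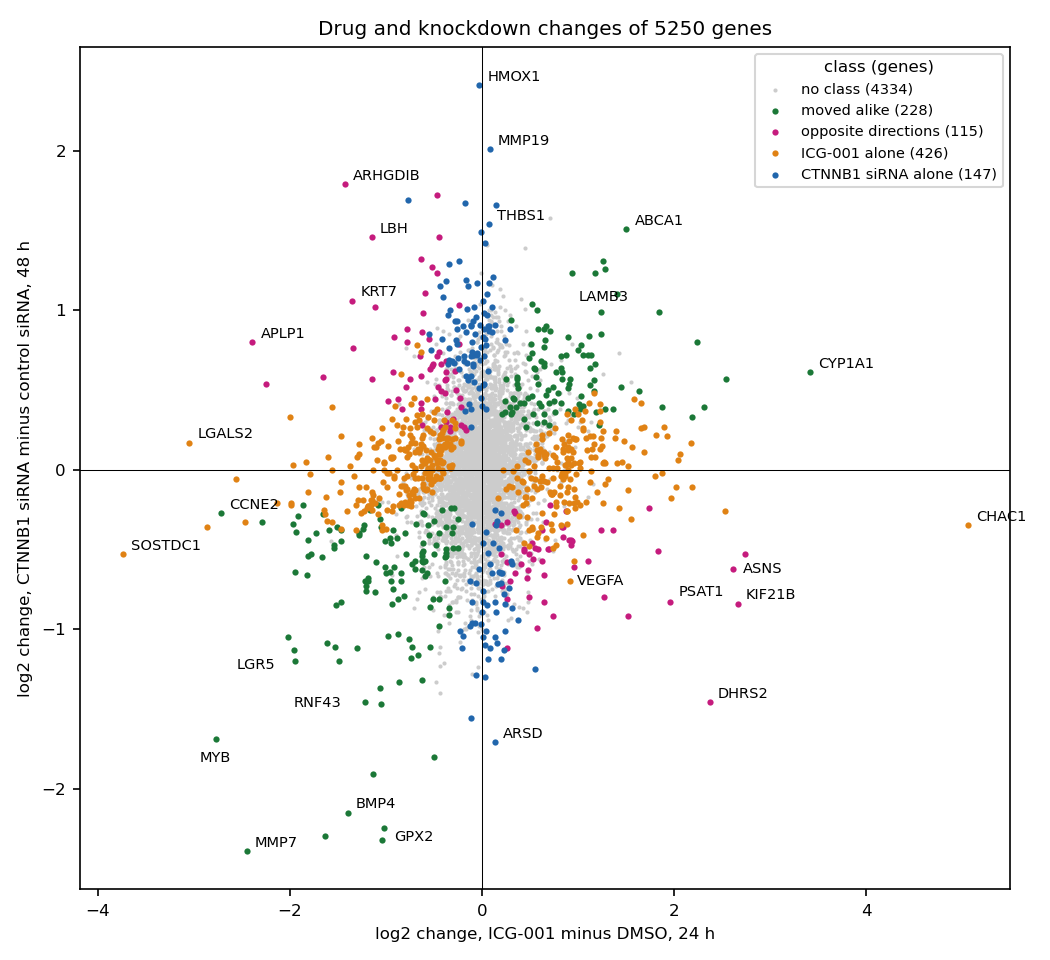
Each point is 1 of 5250 genes, with its log2 change between ICG-001 and DMSO at 24 h (mean of 3 arrays minus mean of 3) on the horizontal axis and between CTNNB1 siRNA and control siRNA at 48 h (2 minus 2) on the vertical axis; colours mark the 4 classes. MMP7, MYB, BMP4 and LGR5 lie far into the lower left, DHRS2 and ASNS to the lower right, and CHAC1 (5.06) and HMOX1 (2.41) lie along 1 axis each.

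The responses overlapped in part. Of the 306 genes that fell with the siRNA, 126 (41.2%) also fell with ICG-001 and 54 (17.6%) rose, beside backgrounds of 11.3% and 9.22% over all genes. Of the 325 that rose with the siRNA, 102 (31.4%) also rose with ICG-001 and 61 (18.8%) fell. Read from the drug side, 21.3% of the 592 genes that fell with ICG-001 also fell with the siRNA and 10.3% rose, and of the 484 that rose 21.1% also rose and 11.2% fell, beside siRNA backgrounds of 5.83% fallen and 6.19% risen. Over all genes the signs of the 2 changes matched for 2824 (53.8%), over genes called in both for 228 of 343 (66.5%), and over genes at least 2-fold changed in both for 22 of 27 (81.5%). Across all 5250 genes the 2 changes had a Pearson correlation of 0.16 (Spearman 0.13), and across the 343 called in both 0.36 (0.37). These correlations describe genes, which are not independent and share arrays, normalization and the selection by variation; the 2 changes share no control array.

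Size separated the agents among genes moved alike. The change differed between agents for 98 of 228, being larger with ICG-001 in 81 and with the siRNA in 17. The siRNA side rested on 2 control arrays that differed. The replicate 1 control siRNA array lay nearer to the CTNNB1 siRNA arrays than the replicate 2 array for 445 of the 631 siRNA genes (70.5%) and for 182 of the 228 moved alike (79.8%). Without control siRNA replicate 2, 489 siRNA genes were called, and without replicate 1, 667. All 631 had both control arrays on the same side of the CTNNB1 siRNA mean, but the calls used these same arrays, which largely fixes that outcome. The counts of nearer control arrays were not taken over all genes.

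The genes that fell most with both agents included several that Wnt signalling is known to drive. Of 43 listed Wnt target genes 20 were measured, and 9 fell with ICG-001, 8 fell with the siRNA and 5 fell with both, namely MMP7, BMP4, RNF43, LGR5 and SOX4. Over all genes the shares that fell were 11.3%, 5.83% and 2.40%. Rises were 2 and 1, beside 9.22% and 6.19%. The difference between the 2 changes was called for 11 of the 20, beside 15.9% of all genes. The medians of the 20 genes were -0.39 with ICG-001 and -0.26 with the siRNA, against -0.02 and 0.01 over all genes (in the deposited scaling -0.22 and -0.18 against 0.09 and 0.02).

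MMP7, a secreted matrix metalloproteinase, had intensities of 1743, 1662 and 1605 with DMSO and 419, 396 and 382 with ICG-001. The control siRNA arrays gave 2275 and 3669.7, and the CTNNB1 siRNA arrays 589 and 773. Every treated array lay below every control array of its experiment. MMP7 fell by 2.45 (SE 0.15, adjusted p 1.30e-10) with ICG-001 and fell by 2.39 (SE 0.18, adjusted p 3.26e-08) with the siRNA, and the difference of -0.06 on the log2 scale was not called (adjusted p 0.909). MYB, which encodes a transcription factor of progenitor cells, stood at 372, 354 and 339 with DMSO, 53.9, 44.5 and 52.2 with ICG-001, 176 and 363 with control siRNA and 44.0 and 59.3 with CTNNB1 siRNA. Every treated array lay below its controls, and the 2 siRNA controls were uneven. It fell by 2.77 (SE 0.17, adjusted p 2.24e-10) with ICG-001 and fell by 1.69 (SE 0.21, adjusted p 1.57e-05) with the siRNA. The larger drug change was called as a difference (-1.08, adjusted p 0.00841), but not in the deposited scaling (adjusted p 0.322). A dimmer probe set of MYB was called with neither agent (-0.15 and -0.19).

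The promoters of these 2 genes are shown because both held a word of the kind that TCF/LEF factors bind. Each sequence runs from 250 bases before to 50 bases after the RefSeq start (GRCh38.p14), 5′ to 3′ on the gene's strand, with capitals marking such a word on either strand. The window for MMP7 is chr11:102530698-102530997 on the minus strand, and that for MYB is chr6:135181058-135181357 on the plus strand.
MMP7: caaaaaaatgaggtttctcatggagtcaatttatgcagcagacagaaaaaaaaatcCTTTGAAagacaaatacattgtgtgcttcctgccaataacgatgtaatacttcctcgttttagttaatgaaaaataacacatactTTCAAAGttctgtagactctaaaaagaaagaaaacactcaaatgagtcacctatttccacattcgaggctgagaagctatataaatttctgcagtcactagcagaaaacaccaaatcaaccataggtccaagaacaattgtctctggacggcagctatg
MYB: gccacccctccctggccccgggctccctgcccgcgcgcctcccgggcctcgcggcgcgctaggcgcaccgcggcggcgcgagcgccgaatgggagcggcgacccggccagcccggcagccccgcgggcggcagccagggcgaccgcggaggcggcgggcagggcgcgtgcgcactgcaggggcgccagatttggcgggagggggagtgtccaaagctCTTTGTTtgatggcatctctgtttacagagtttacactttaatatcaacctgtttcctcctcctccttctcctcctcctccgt
The MMP7 window held CTTTGAA 194 bases before the start and its reverse complement, printed as TTCAAAG, 109 bases before the start, and the MYB window held CTTTGTT 33 bases before the start. Such words were common. The 4 words searched on both strands were CTTTGAA as well as CTTTGAT as well as CTTTGTA as well as CTTTGTT; at least 1 of them occurred in 13.9% of all 27305 promoters and in 12.3% of the 4057 measured genes with a promoter. The share was 14.3% (14 of 98) among genes that fell with both agents, 6.1% (5 of 82) among those that rose with both and 7.0% (3 of 43) among those that fell with the siRNA alone. A match is only a match of letters, and the windows of BMP4 and RNF43 held none of the searched words.

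BMP4, a secreted growth factor of the TGF-β family, gave 4374, 4136 and 4347 with DMSO, 2247, 2276 and 2294 with ICG-001, 2300.2 and 3008 with control siRNA and 646 and 793 with CTNNB1 siRNA. It fell by 1.40 (SE 0.10, adjusted p 1.01e-09) with ICG-001 and fell by 2.15 (SE 0.12, adjusted p 7.86e-10) with the siRNA, and the larger siRNA fall was called as a difference (adjusted p 0.00163). RNF43, a ubiquitin ligase that removes Frizzled receptors and so feeds back on Wnt, gave 400.1, 362 and 367 with DMSO and 185, 207 and 168 with ICG-001. With control siRNA it gave 262 and 314, and with CTNNB1 siRNA 70.4 and 79.6. The groups did not overlap, and RNF43 fell by 1.22 (SE 0.10, adjusted p 7.69e-09) with ICG-001 and fell by 1.46 (SE 0.12, adjusted p 1.09e-07) with the siRNA. The difference between these falls was not called (adjusted p 0.366), but it was in the deposited scaling, where the siRNA fall was the larger (-1.74 against -0.96, adjusted p 5.58e-04).

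LGR5, the R-spondin receptor that marks stem cells of the gut, showed 365, 359 and 369 with DMSO, 102, 106 and 104 with ICG-001, 119.6 and 193 with control siRNA and 45.5 and 49.1 with CTNNB1 siRNA. It fell by 1.95 (SE 0.12, adjusted p 1.66e-10) with ICG-001 and fell by 1.20 (SE 0.14, adjusted p 1.08e-05) with the siRNA. Its drug fall was the larger (adjusted p 0.00837), except in the deposited scaling (adjusted p 0.493). A dimmer probe set of LGR5 was at -0.47 with ICG-001 (adjusted p 0.0338) and -0.85 with the siRNA (adjusted p 0.00538). Both falls thus held, but their order of size rests on the probe set. SOX4, a transcription factor of progenitor cells, leaned to the drug: intensities were 768, 690.1 and 702 with DMSO and 276, 275 and 305 with ICG-001, but 388 and 487 with control siRNA and 304 and 306 with CTNNB1 siRNA. It fell by 1.54 (SE 0.09, adjusted p 1.63e-10) with ICG-001 and fell by 0.49 (SE 0.11, adjusted p 0.00790) with the siRNA, and the difference was called (adjusted p 2.91e-05). The siRNA fall was lost without control siRNA replicate 2 (-0.30). The other probe set of SOX4 fell with ICG-001 (-0.79) but was not called with the siRNA (-0.22, adjusted p 0.422).

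The other measured Wnt targets did not move together. VEGFA, also on this list, moved in opposite directions, at 1.27 with ICG-001 and -0.80 with the siRNA. Its other probe sets rose with ICG-001 but were not called with the siRNA (-0.24 and -0.29). Called with ICG-001 alone were BIRC5, which encodes survivin, an inhibitor of apoptosis needed in mitosis (-1.15 with ICG-001 and -0.19 with the siRNA), the growth factor FGF18 (-1.28 and -0.11), the homeobox gene MSX1 (-1.56 and 0.39), the nuclear receptor PPARD (-0.81 and -0.05) and the Rac activator TIAM1, which rose (0.88 and -0.34). In the deposited scaling the MSX1 rise with the siRNA was also called (0.46, adjusted p 0.0204), so that it moved in opposite directions. Called with the siRNA alone were the receptor TNFRSF19, which fell (-1.09 with the siRNA and 0.16 with ICG-001), and the hyaluronan receptor CD44, which rose (0.62 and 0.06). CD44 also rose with ICG-001 in the deposited scaling (0.60, adjusted p 1.85e-06). The tight junction gene CLDN2 fell with the siRNA (-1.40, adjusted p 0.00115) without a called difference from its drug change of -0.44, and by less without control siRNA replicate 2 (-0.83, adjusted p 0.0298). Another 6 genes, NOTUM, TCF4, L1CAM, FGF9, MET and S100A6, were called with neither agent.

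In 3 lists of the pathway itself (ligands and receptors, antagonists, destruction complex and nuclear partners) ICG-001 called 1 of 8, 3 of 10 and 1 of 8 genes, beside 20.5% of all genes, and the siRNA 1 of 8, 1 of 10 and 3 of 8, beside 12%. Of 8 measured Wnt ligands and receptors, 1 was called with each agent: the ligand WNT7B rose with the siRNA (0.81, adjusted p 2.72e-04), and the receptor FZD1 fell with ICG-001 (-0.74, adjusted p 0.0442; 0.0581 in the deposited scaling, and lost without each of 7 arrays, where adjusted p ranged from 0.0505 to 0.140). WNT7B was at 0.24 with ICG-001, which was called in the deposited scaling (0.41, adjusted p 0.00899). Of 10 measured genes on the antagonist list, 3 fell with ICG-001 and 1, SFRP1, rose with the siRNA (0.93, adjusted p 0.0137). The SFRP1 rise was not called in the deposited scaling (adjusted p 0.0929) nor without control siRNA replicate 1 (0.58, adjusted p 0.148) or CTNNB1 siRNA replicate 2 (0.92, adjusted p 0.0636). SOSTDC1, which encodes a secreted BMP and Wnt inhibitor, went from 420.4, 385 and 392 with DMSO to 26.5, 20.1 and 14.7 with ICG-001 and fell by 3.74 (SE 0.20, adjusted p 2.28e-11). It was dim in the siRNA experiment, at 18.4 and 27.9 and 12.2 and 17.1, where its change of -0.53 was not called (adjusted p 0.187). The kinase gene WNK1, which is on the antagonist list but is not taken here as an antagonist, fell by 0.50 with ICG-001. Its other probe set was at -0.04. CTNNBIP1, an inhibitor of the β-catenin and TCF contact, fell by 0.42, but not in the deposited scaling (-0.16, adjusted p 0.305).

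Among 8 measured genes of the destruction complex and of nuclear partners, TCF7L2, a TCF factor, was called with both agents (-0.37 with ICG-001 and -0.54 with the siRNA). Its drug change was not called in the deposited scaling (-0.19, adjusted p 0.188) nor without ICG-001 replicate 3 (-0.30, adjusted p 0.0570) or DMSO replicate 2 (-0.29, adjusted p 0.0562). BCL9L, a β-catenin cofactor, rose with the siRNA (0.54, adjusted p 0.00756), a call lost without control siRNA replicate 2 (0.45, adjusted p 0.0700). CREBBP, the gene for CBP, was dim on all 10 arrays, with 10.4, 5.42 and 6.60 for DMSO and 12.6 and 13.9 for control siRNA. Its siRNA change of -0.76 (adjusted p 0.0190) was not called in the deposited scaling (adjusted p 0.153), nor without control siRNA replicate 2 (-0.73, adjusted p 0.0812) or CTNNB1 siRNA replicate 2 (-0.70, adjusted p 0.0925).

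Of 11 junction genes measured, the desmosomal cadherin DSC2 fell with both agents (-0.87 and -0.81), but its dimmer probe set rose with ICG-001 (0.30, adjusted p 0.0227) and fell with the siRNA (-0.68), so its drug direction rests on the probe set. The desmosomal cadherin DSG3 fell with the siRNA (-0.98, adjusted p 3.05e-08), and its drug change was -0.45 but 0.10 in the deposited scaling, so it has no settled direction with ICG-001. P-cadherin (CDH3) rose with the siRNA (0.87, adjusted p 2.06e-07) from a dim level, 33.8 and 33.8 with control siRNA. Its drug change of 0.07 was not called, but in the deposited scaling it was (0.31, adjusted p 0.00112). NECTIN2, a junction receptor, rose with the siRNA by 0.79 (SE 0.10, adjusted p 1.59e-05). Its drug change of -0.24 was called in the main scaling (adjusted p 0.0359), was -0.00 in the deposited one, and was lost without ICG-001 replicate 1 (-0.20, adjusted p 0.151), ICG-001 replicate 3 (-0.25, adjusted p 0.0858) or DMSO replicate 3 (-0.15, adjusted p 0.202). E-cadherin (CDH1) was at 12.3 and 8.68 with control siRNA and 15.2 and 16.6 with CTNNB1 siRNA, and its change of 0.42 (adjusted p 0.0487) was not called in the deposited scaling (adjusted p 0.215) nor without each of 7 arrays. PKP4, a plakophilin of junctions, was at -0.64 with ICG-001 (adjusted p 2.00e-05), while its dimmer probe set was at 1.74, so its direction rests on the probe set.

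Other genes also fell with both agents. PPP1R1B, which encodes the phosphatase inhibitor DARPP-32, gave 1416, 1572 and 1776 with DMSO, 650.0, 649 and 641 with ICG-001, 1576 and 2443 with control siRNA and 386 and 482 with CTNNB1 siRNA. Its siRNA change of -2.30 (SE 0.17, adjusted p 3.05e-08) exceeded its drug change of -1.63 (SE 0.14, adjusted p 2.07e-08), and the difference was called (adjusted p 0.0481). GPX2, a glutathione peroxidase of gut epithelium, fell from 344, 362 and 373 to 180.4, 228 and 208 with ICG-001 and from 694.5 and 1359.6 to 146 and 223 with the siRNA. Its changes were -1.02 (SE 0.18, adjusted p 2.05e-04) and -2.25 (SE 0.22, adjusted p 1.06e-06). LONRF2 (-1.14 with ICG-001 and -1.91 with the siRNA) also leaned to the siRNA, and BCL2L15, a BCL2 family member (-1.96 and -1.13), to the drug. SOWAHA (-1.49 and -1.20) and the transporter gene SLC35G1 (-1.30 and -1.12) fell with both agents without a called difference.

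Rises shared by both agents included ABCA1, CHST2, TCIM and LAMB3. ABCA1, the cholesterol exporter, gave 76.7, 104.5 and 107 with DMSO, 276, 330.3 and 304 with ICG-001, 427 and 316 with control siRNA and 1086 and 1131 with CTNNB1 siRNA. No array of a treated group overlapped its controls, and ABCA1 rose by 1.50 (SE 0.13, adjusted p 1.58e-08) and by 1.51 (SE 0.15, adjusted p 1.63e-06). LAMB3, a chain of laminin 332, gave 1688, 1753 and 1924 with DMSO, 6086, 6374 and 6049 with ICG-001, 1351 and 926 with control siRNA and 2429 and 2444 with CTNNB1 siRNA. It rose by 1.18 (SE 0.09, adjusted p 3.62e-09) and by 1.23 (SE 0.11, adjusted p 2.71e-07); the difference was called in the deposited scaling only (adjusted p 0.00188, with the drug rise at 1.78).

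The sulfotransferase gene CHST2 rose by 1.26 with ICG-001 and 1.31 with the siRNA. TCIM (1.28 with ICG-001 and 1.26 with the siRNA), the urea transporter SLC14A1 (0.94 and 1.23), the laminin-related NTN4 (1.11 and 0.84) and the cytokine gene IL32 (1.24 and 0.85) rose with both. So did the noncoding transcripts LINC01133 (1.84 and 0.99), FUT8-AS1 (1.24 and 0.99) and the pseudogene CTSLP8 (1.40 and 1.10). Without control siRNA replicate 2 the siRNA rise was 0.76 for SLC14A1 (adjusted p 0.00426) and 0.64 for FUT8-AS1 (adjusted p 0.00196). The dimmer probe sets of FUT8-AS1 and LINC01133 were called with neither agent. CTSLP8 shares sequence with related cathepsin genes and is uncertain. At 6 h of ICG-001, TCIM had already changed by 1.28 (adjusted p 6.80e-07), whereas ABCA1 was at 0.31 (adjusted p 0.137) and IL32 at 0.08 (adjusted p 0.894).

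**Figure D2:**
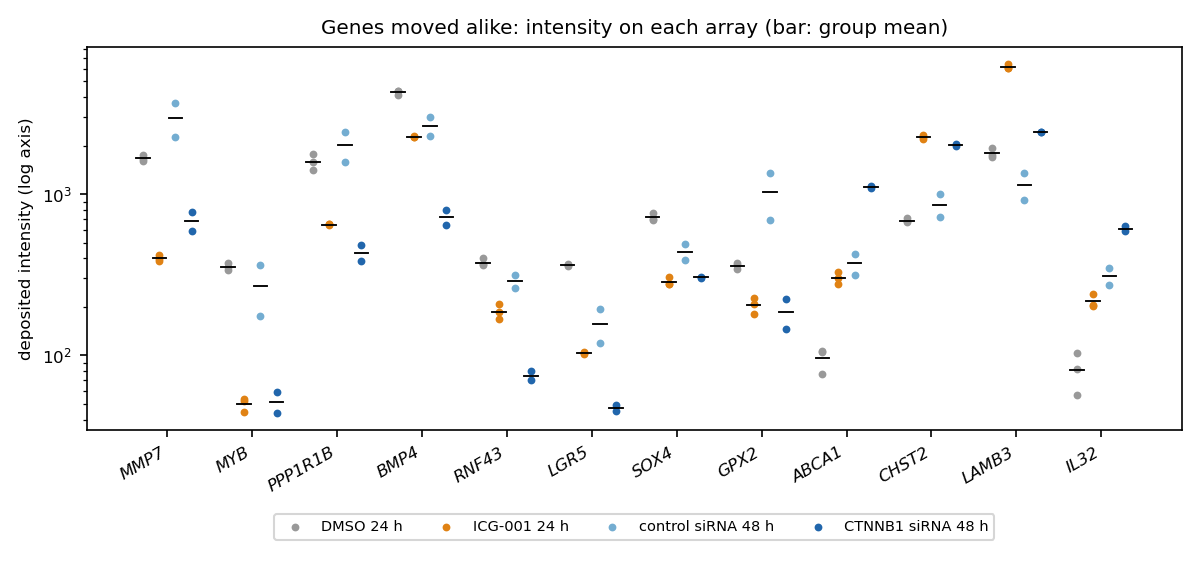
Points are deposited intensities on single arrays (log axis) for 12 genes moved alike, in 4 groups (3 DMSO, 3 ICG-001, 2 control siRNA and 2 CTNNB1 siRNA arrays), and bars are group means. For the 8 genes from MMP7 to GPX2 both treated groups lie below their own controls, and for the 4 from ABCA1 to IL32 above them, while the control levels differ between the experiments.

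Of 18 measured genes of DNA replication and G1/S, 16 fell with ICG-001 (11.3% of all genes), 9 fell with the siRNA (5.83%) and none rose with either. The medians were -1.69 and -0.28, the difference was called for 16, and 8 genes fell with both while 8 fell with ICG-001 alone. In the deposited scaling 16 and 5 fell. CCNE2, the cyclin that starts S phase with CDK2, gave 1779, 1821 and 1776 with DMSO and 354, 344 and 338 with ICG-001. With control siRNA it gave 971 and 1021, and with CTNNB1 siRNA 867 and 857. It fell by 2.72 (SE 0.05, adjusted p 3.76e-17) with ICG-001 and fell by 0.27 (SE 0.06, adjusted p 0.00921) with the siRNA, the latter not called in the deposited scaling (adjusted p 0.0541) nor without control siRNA replicate 2 (-0.21, adjusted p 0.0687). Its other probe set was at -2.69 and -0.07, the latter not called.

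ORC1, part of the origin recognition complex, had the largest siRNA fall of the replication genes called in both (-1.78 with ICG-001 and -0.53 with the siRNA). The ribonucleotide reductase subunit RRM1 (-1.59 and -0.38) and the replicative helicase subunits GINS2 (-2.29 and -0.33) and GINS4 (-1.24 and -0.37) followed. For ORC1, RRM1, GINS2 and GINS4 the drug fall was the larger, with the difference called. Of 6 mitosis genes 5 fell with ICG-001 and none with the siRNA, beside 11.3% and 5.83% of all genes. The difference was called for 4, including the checkpoint kinase BUB1 (-1.08 and -0.28) and INCENP of the chromosomal passenger complex (-0.72 and -0.03).

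Both agents raised CDKN1A and CDKN2B, which encode inhibitors of cyclin-dependent kinases. CDKN1A, which encodes p21, gave 1098, 1106 and 1219 with DMSO, 2567, 2833 and 2575 with ICG-001, 1139 and 857 with control siRNA and 1357 and 1474 with CTNNB1 siRNA. It rose by 0.74 (SE 0.08, adjusted p 8.10e-07) and by 0.52 (SE 0.10, adjusted p 0.00181), without a called difference in the main scaling (adjusted p 0.308) but with one in the deposited scaling (adjusted p 4.75e-04), where the drug rise was the larger. Without control siRNA replicate 2 the siRNA rise of CDKN1A was 0.33 (adjusted p 0.0345). CDKN2B, which encodes p15, rose by 0.83 and 0.61; without that array its siRNA rise was 0.34 (adjusted p 0.0226). The other probe set of CDKN2B was called with neither agent (0.42 and -0.15), and the mean of both gave a siRNA change of 0.23 (adjusted p 0.284). SESN2, a stress-induced regulator of mTORC1, rose by 2.31 and 0.39, its other probe set being called with ICG-001 (2.14) but not with the siRNA (0.21). Of the 10 measured CDK inhibitor and p53 target genes, these 3 rose with both agents, 6 rose and 2 fell with ICG-001, and 3 rose and 1 fell with the siRNA, beside 9.22% and 11.3%, and 6.19% and 5.83%, of all genes. Of 13 inflammatory genes 6 rose and 1 fell with ICG-001, beside 9.22% and 11.3% of all genes. With the siRNA 4 rose, beside 6.19%, and 3 rose with both agents, beside 1.94%. The 3 that rose with both were IL32, the chemokine CCL20 (1.05 and 0.40) and the cytokine IL1A (2.54 and 0.57); the siRNA call of IL1A was lost without control siRNA replicate 2 (0.35, adjusted p 0.217) or CTNNB1 siRNA replicate 1 (0.61, adjusted p 0.0514) or replicate 2 (0.53, adjusted p 0.0944).

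Most measured genes of the integrated stress response rose with ICG-001. In this response the factor ATF4 raises genes for amino acid synthesis and transport. Of 27 measured genes 23 rose and 1 fell with ICG-001, while 3 rose and 6 fell with the siRNA (in the deposited scaling 24 and 0, and 3 and 4). Over all genes 9.22% rose and 11.3% fell with ICG-001, and 6.19% rose and 5.83% fell with the siRNA. The medians were 0.88 and -0.02. ICG-001 alone moved 14 of them, 6 moved in opposite directions, 3 rose with both, and the difference was called for 23.

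ASNS, asparagine synthetase, gave 1523, 1481 and 1474 with DMSO and 12004, 12231 and 11843 with ICG-001. With control siRNA it gave 1471 and 1923, and with CTNNB1 siRNA 1095 and 1241. It rose by 2.61 (SE 0.11, adjusted p 1.21e-12) with ICG-001 and fell by 0.62 (SE 0.14, adjusted p 0.00459) with the siRNA. The fall was lost without control siRNA replicate 2 (-0.38, adjusted p 0.0890) or CTNNB1 siRNA replicate 1 (-0.50, adjusted p 0.0639). PSAT1, an enzyme of serine synthesis, gave 929.8, 1027 and 978 with DMSO, 5850.0, 5499 and 5569 with ICG-001, 892 and 1178 with control siRNA and 588 and 599 with CTNNB1 siRNA, so that it rose by 1.96 (SE 0.09, adjusted p 3.79e-12) and fell by 0.83 (SE 0.11, adjusted p 3.47e-05). A dimmer probe set of PSAT1 rose with ICG-001 (1.33) but had a siRNA change of 0.28 that was not called (adjusted p 0.0883), so the opposite direction rests on 1 probe set.

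VEGFA, the vascular growth factor, gave 1189, 1029 and 1083 with DMSO, 3930.4, 4017 and 3734 with ICG-001, 1175 and 1203 with control siRNA and 755 and 688 with CTNNB1 siRNA. The groups did not overlap, and VEGFA rose by 1.27 (SE 0.06, adjusted p 2.49e-12) and fell by 0.80 (SE 0.07, adjusted p 2.21e-07); its 2 other probe sets rose with ICG-001 (1.66 and 0.98) and were not called with the siRNA (-0.24 and -0.29). The other stress genes with opposite directions, named after their values were seen, were the ATF4 antagonist TRIB3 (1.74 with ICG-001 and -0.24 with the siRNA), the cystathionine lyase CTH (1.83 and -0.51) and the tryptophanyl-tRNA synthetase WARS1 (0.87 and -0.26). In the deposited scaling the siRNA falls of TRIB3 and WARS1 were not called (adjusted p 0.161 and 0.101), and they were lost without each of 5 arrays for TRIB3 and of 4 for WARS1. The rises shared by both agents were those of SESN2, of HERPUD1 (0.65 and 0.35), a protein of endoplasmic reticulum quality control, and of the repressor JDP2 (1.63 and 0.49), the last lost with the siRNA without replicate 1 of the control siRNA (0.36, adjusted p 0.0824) or of the CTNNB1 siRNA (0.39, adjusted p 0.0914).

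CHAC1, which degrades glutathione and is a strong ATF4 target, had the largest rise with ICG-001 of the genes named here. It gave 25.1, 7.40 and 6.59 with DMSO, 1072, 1112 and 1005 with ICG-001, 24.9 and 22.6 with control siRNA and 11.1 and 27.7 with CTNNB1 siRNA. It rose by 5.06 (SE 0.21, adjusted p 7.49e-13), and its siRNA change of -0.35 was not called (adjusted p 0.453). GDF15, a stress-induced cytokine of the TGF-β family, rose by 2.53 (SE 0.08, adjusted p 1.87e-14) from 145, 163 and 135 to 1074, 981 and 953, with 123 and 122 and 98.1 and 101 on the siRNA arrays. ATF4 itself, also named after its values were seen, rose by 0.57 with ICG-001 and was at -0.12 with the siRNA.

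The promoters of ASNS and CHAC1 are shown because each held the word TGATGNAA, the composite site of ATF4 and C/EBP, while 1 of these genes moved in opposite directions and the other with ICG-001 alone. Capitals mark that word on either strand. The ASNS window is chr7:97872359-97872658 on the minus strand and the CHAC1 window chr15:40953221-40953520 on the plus strand (GRCh38.p14, RefSeq).
ASNS: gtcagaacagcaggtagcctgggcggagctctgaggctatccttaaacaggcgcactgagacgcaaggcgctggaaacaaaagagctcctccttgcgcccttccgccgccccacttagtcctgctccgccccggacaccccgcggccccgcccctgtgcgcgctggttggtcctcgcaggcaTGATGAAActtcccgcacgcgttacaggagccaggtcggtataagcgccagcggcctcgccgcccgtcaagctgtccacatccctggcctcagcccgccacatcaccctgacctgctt
CHAC1: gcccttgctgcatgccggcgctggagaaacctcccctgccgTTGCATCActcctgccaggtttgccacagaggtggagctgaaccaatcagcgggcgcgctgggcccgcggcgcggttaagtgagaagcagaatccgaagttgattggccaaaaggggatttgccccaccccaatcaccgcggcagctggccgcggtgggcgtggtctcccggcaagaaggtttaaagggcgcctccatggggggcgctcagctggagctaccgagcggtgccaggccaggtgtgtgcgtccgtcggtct
The word lay 68 bases before the start of ASNS and, on the other strand, 209 bases before the start of CHAC1. It occurred in 3.7% of all promoters, in 6.7% (3 of 45) of those of genes up with ICG-001 and down with the siRNA, and in 2.8% (4 of 142) of those up with ICG-001 alone. The window of PSAT1 held none. The E2F words, TTTCCCGC as well as TTTGGCGC on both strands, occurred in 2.3% of all promoters, in 6.1% (6 of 98) of those that fell with both agents, in 5.9% (11 of 187) of those that fell with ICG-001 alone and in 7.0% (3 of 43) of those that fell with the siRNA alone. The cyclic AMP element TGACGTCA occurred in 2.0% of all promoters and in none of the 98.

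Outside the stress list, DHRS2, a mitochondrial reductase, had the largest siRNA fall of the genes up with ICG-001 and down with the siRNA. It gave 73.3, 99.2 and 114 with DMSO, 556, 559.9 and 589 with ICG-001, 37.2 and 41.1 with control siRNA and 8.69 and 12.3 with CTNNB1 siRNA, so that it rose by 2.37 (SE 0.13, adjusted p 6.17e-11) and fell by 1.46 (SE 0.16, adjusted p 4.68e-06). The CTNNB1 siRNA arrays lay near the bottom of the scale, where the number added before taking logs damps a change. A dimmer probe set of DHRS2 rose with ICG-001 (0.99), but its siRNA change of -0.53 was not called (adjusted p 0.0528). The called opposite direction thus rests on 1 probe set. KIF21B, a kinesin motor, gave 57.1, 72.7 and 72.7 with DMSO, 527, 533 and 495 with ICG-001, 21.3 and 32.5 with control siRNA and 9.51 and 16.8 with CTNNB1 siRNA. It rose by 2.66 (SE 0.15, adjusted p 5.28e-11) and fell by 0.84 (SE 0.18, adjusted p 0.00423), the fall being lost without control siRNA replicate 2 (-0.62, adjusted p 0.0688) or CTNNB1 siRNA replicate 1 (-0.58, adjusted p 0.0669). RPS6KA5, the kinase MSK1, rose from 502, 484 and 513 to 933, 929 and 963 with ICG-001 and went from 420.1 and 421 to 249 and 251 with the siRNA; it rose by 0.64 (SE 0.06, adjusted p 1.28e-07) and fell by 0.66 (SE 0.08, adjusted p 5.93e-06).

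The zinc finger gene ZBED3, a regulator of AXIN, rose by 0.96 with ICG-001 and fell by 0.61 with the siRNA, the latter lost without control siRNA replicate 2 (-0.44, adjusted p 0.0827). GPR146, an orphan receptor, was at 0.57 with ICG-001 and -0.99 with the siRNA. Its drug rise was lost without ICG-001 replicate 2 (0.51, adjusted p 0.114), ICG-001 replicate 3 (0.57, adjusted p 0.0771), DMSO replicate 2 (0.46, adjusted p 0.148) or DMSO replicate 3 (0.60, adjusted p 0.0518), and its siRNA fall without CTNNB1 siRNA replicate 2 (-0.71, adjusted p 0.0846). The siRNA falls of 2 dim genes, TTC39B (-0.92) and LMLN (-0.83), were not called in the deposited scaling (adjusted p 0.0656 and 0.184), and that of TTC39B was lost without CTNNB1 siRNA replicate 2 (-0.47, adjusted p 0.178).

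In the reverse direction, ARHGDIB gave 937, 997 and 1199 with DMSO, 457, 501 and 444 with ICG-001, 852 and 526 with control siRNA and 2227 and 2099.8 with CTNNB1 siRNA. It fell by 1.43 (SE 0.12, adjusted p 1.09e-08) with ICG-001 and rose by 1.79 (SE 0.14, adjusted p 8.03e-08) with the siRNA. LBH, a transcriptional cofactor, gave 1431, 1449.9 and 1648 with DMSO, 824, 936 and 805 with ICG-001, 602 and 457 with control siRNA and 1497 and 1381 with CTNNB1 siRNA. It fell by 1.15 (SE 0.09, adjusted p 2.79e-09) and rose by 1.46 (SE 0.10, adjusted p 2.36e-08), so that the ICG-001 arrays and the control siRNA arrays were the low groups. KRT7, a keratin of ductal epithelium, gave 1251, 1566 and 1590.3 with DMSO, 708, 709.6 and 736 with ICG-001, 104 and 80.2 with control siRNA and 248.5 and 255 with CTNNB1 siRNA. It fell by 1.35 (SE 0.09, adjusted p 6.07e-10) and rose by 1.06 (SE 0.11, adjusted p 1.91e-06), from a control siRNA level far below that with DMSO; a dimmer probe set of KRT7 was called with neither agent.

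APLP1, an amyloid precursor-like membrane protein, had the largest drug fall of the class, from 536, 439.7 and 589 to 90.6, 115 and 121, beside a rise from 548 and 439 to 958 and 798 with the siRNA. The changes were -2.39 (SE 0.11, adjusted p 2.79e-12) and 0.80 (SE 0.13, adjusted p 3.32e-04). The tight junction gene CGN (cingulin) was at -0.78 with ICG-001 and 0.88 with the siRNA, the nuclear cofactor JAZF1 at -1.11 and 1.02, and the secreted protease inhibitor SPINK4 at -0.65 and 0.71, all called. For 3 more the siRNA rise was lost without control siRNA replicate 2: MELTF (0.83; 0.74, adjusted p 0.0960 without it, and 0.63, adjusted p 0.0963 in the deposited scaling), PAQR9 (0.80; 0.53, adjusted p 0.101) and the antisense transcript MUC12-AS1 (0.76; 0.34, adjusted p 0.0587). It was also lost without CTNNB1 siRNA replicate 2 for MELTF (0.81, adjusted p 0.0724) and without replicate 1 for PAQR9 (0.69, adjusted p 0.0580). The dimmer probe set of PAQR9 was called with neither agent (0.45 and -0.06).

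**Figure D3:**
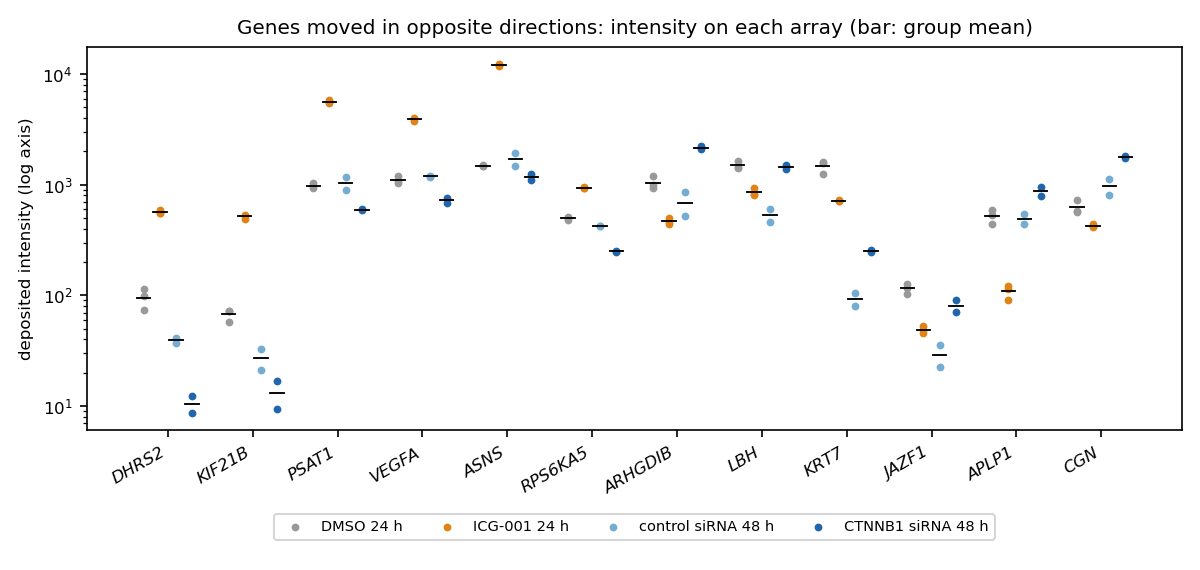
Points are deposited intensities on single arrays (log axis) for 12 genes moved in opposite directions, in the same 4 groups, and bars are group means. For the 6 genes from DHRS2 to RPS6KA5 the ICG-001 arrays lie above DMSO and the CTNNB1 siRNA arrays below control siRNA; for the 6 from ARHGDIB to CGN the order is reversed in both experiments.

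Besides stress and cell cycle genes, ICG-001 alone moved MMP1, BMP6 and LGALS2. MMP1, interstitial collagenase, rose from 406, 414 and 394 with DMSO to 2534, 2585 and 2609 with ICG-001, by 2.18 (SE 0.15, adjusted p 6.39e-10), while the siRNA change of 0.17 was not called (adjusted p 0.658). The control siRNA arrays of MMP1 were uneven, at 1351 and 680.1. BMP6, a ligand of the same family as BMP4, rose by 2.19 (SE 0.08, adjusted p 6.41e-14) with ICG-001 and was at -0.11 with the siRNA, with a called difference (adjusted p 6.44e-11). The protease inhibitor CSTA rose by 2.06 and the adhesion receptor ADGRG1 by 2.04, beside siRNA changes of 0.10 and 0.06.

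Among the falls, LGALS2, a galectin of gut epithelium, went from 1511, 1260.4 and 1317 with DMSO to 202, 208 and 190.3 with ICG-001. The siRNA arrays stayed between 1234 and 1623, and the changes were -3.05 (SE 0.08, adjusted p 8.82e-16) and 0.17 (SE 0.09, adjusted p 0.303). FAM111B, a protease linked to replication (-2.86 with ICG-001 and -0.36 with the siRNA), the tetraspan protein TM4SF4 (-2.56 and -0.06) and the CDK phosphatase CDC25A (-2.13 and -0.21) fell in the same way. The histone chaperone ASF1B also met the rule (-2.47 and -0.33), but DMSO replicate 3 read 12581 against 1602 and 1619 on the other DMSO arrays, and without it the drug change was -1.57. In the deposited scaling its difference was not called (adjusted p 0.110). Of the 426 genes, 20 had mean intensities under 16 in both siRNA groups, near the bottom of the scale. Among the 3886 genes called by neither agent 2303 did.

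CYP1A1, an enzyme that the aryl hydrocarbon receptor induces, rose with both agents but far more with ICG-001, from 275, 249 and 237.5 to 3749, 3543 and 3633 against 379 and 424 to 563 and 713. The rises were 3.41 (SE 0.09, adjusted p 1.16e-15) and 0.61 (SE 0.11, adjusted p 7.07e-04), and the difference was called (adjusted p 4.14e-11). CYP1B1, another target of that receptor, rose by 0.91 with ICG-001 and fell by 0.44 with the siRNA, and its 2 other probe sets did the same. Of 14 xenobiotic and oxidative stress genes, 5 rose and 2 fell with ICG-001, and 4 rose and 3 fell with the siRNA (all genes: 9.22% and 11.3%, and 6.19% and 5.83%).

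CTNNB1 siRNA alone was the class most open to scaling. Of its 147 genes 39 stayed in it in the deposited scaling and 30 in all 4 scalings, against 185 and 175 of the 228 moved alike, 72 and 64 of the 115 with opposite directions and 309 and 283 of the 426 with ICG-001 alone. For 32 of the 147, both the DMSO and the ICG-001 mean lay under 16. The same held for 1 of the 228 moved alike and for 1346 of the 3886 genes called by neither agent. MMP19, a matrix metalloproteinase, held in all 4 scalings. It gave 15.8 and 10.0 with control siRNA and 102 and 72.5 with CTNNB1 siRNA, beside 192, 179 and 195 with DMSO and 229.7, 202 and 233 with ICG-001. It rose by 2.01 (SE 0.15, adjusted p 3.79e-08) with the siRNA and was at 0.08 with ICG-001.

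HMOX1, the heme oxygenase, rose with the siRNA from 546 and 467 to 2321 and 2506, by 2.41 (SE 0.09, adjusted p 2.07e-12). On the drug arrays it stood at 411, 397 and 439 with DMSO and 476, 483 and 514 with ICG-001, a change of -0.03 in the main scaling and a called 0.23 in the deposited one (adjusted p 0.0160). The matrix glycoprotein THBS1 rose from 355 and 305 to 1016 and 1005 with the siRNA, by 1.54 (SE 0.06, adjusted p 1.22e-11). Its drug change was 0.07, but 0.66 in the deposited scaling (adjusted p 1.80e-08), and in both scalings the siRNA rise was the larger with the difference called.

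The collagen gene COL5A3 (1.66 with the siRNA and 0.15 with ICG-001), the gut peptide GUCA2B (1.67 and -0.18) and the homeobox gene LHX2 (1.49 and -0.01) also rose with the siRNA alone in all 4 scalings. The receptor IL11RA (1.69 and -0.77) was called down with ICG-001 in the deposited scaling (-0.72, adjusted p 0.0316), and the difference for the chemokine receptor CCR6 (1.42 and 0.03) was not called there (adjusted p 0.162). Without control siRNA replicate 2 the siRNA rise was 0.90 for LHX2 (adjusted p 2.12e-04) and 0.88 for IL11RA (adjusted p 0.0360). Among the falls, the sulfatase ARSD (-1.71 and 0.13), the growth factor receptor FGFR2 (-1.56 and -0.12) and RAB40B (-1.13 and 0.23) held in all 4 scalings. FGFR2 gave 69.7 and 78.0 with control siRNA and 20.98 and 14.6 with CTNNB1 siRNA, and was dim in the drug experiment at 18.5, 27.4 and 10.8 with DMSO and 9.19, 28.7 and 17.9 with ICG-001. The falls of LRRC8C, LINC01616, CTHRC1, TIFAB and PLCL2, between -1.30 and -1.19, were not called in the deposited scaling. Those of TIFAB and PLCL2 were also lost without control siRNA replicate 2 (-0.71, adjusted p 0.141) and replicate 1 (-0.71, adjusted p 0.162), respectively, and 3 other probe sets of LRRC8C were called with neither agent.

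Of 8 measured genes on the cholesterol list, 5 fell and none rose with the siRNA (5.83% and 6.19% of all genes), while 2 rose and 2 fell with ICG-001, with medians of -0.46 and 0.15, and the difference was called for 3. With values scaled as deposited, 4 fell with the siRNA, and 5 rose and 2 fell with ICG-001. The synthesis enzyme DHCR7 (-0.94 with ICG-001 and -0.84 with the siRNA) and the sterol carrier STARD4 (-0.73 and -1.11) fell with both agents. INSIG1, which holds the sterol sensor in the endoplasmic reticulum, gave 1014, 939 and 834 with DMSO, 1519.7, 1385 and 1561 with ICG-001, 2959 and 2865 with control siRNA and 2165 and 2034 with CTNNB1 siRNA, so that it rose by 0.29 (SE 0.06, adjusted p 0.00201) and fell by 0.70 (SE 0.08, adjusted p 4.26e-06). Its other probe set was at 0.41 and -0.16, the latter not called (adjusted p 0.298), so the fall of INSIG1 rests on 1 probe set. The synthesis enzyme SQLE fell by 0.65 with the siRNA and was at 0.10 with ICG-001, which was a called rise in the deposited scaling (0.33, adjusted p 0.00148). SREBF1, a regulator of lipid synthesis genes, was barely called with the siRNA (-0.27, adjusted p 0.0418) and not in the deposited scaling (adjusted p 0.172).

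Of 8 histone genes 6 rose with ICG-001 (9.22% of all genes) and 1, H2BC5, with both (1.28 and 0.38), beside 1.94% of all genes. The siRNA rise of H2BC5 was lost without control siRNA replicate 2 (0.29) or CTNNB1 siRNA replicate 1 (0.29). The other probe set of H2BC5 rose with ICG-001 (1.03) but was not called with the siRNA (0.22, adjusted p 0.145). Of 24 mesenchymal and matrix genes 3 rose and 3 fell with ICG-001, near the 9.22% and 11.3% of all genes, and 6 rose and 1 fell with the siRNA, beside 6.19% and 5.83%. The membrane metalloproteinase MMP14 rose with both (1.12 and 0.53), although without control siRNA replicate 2 (0.31, adjusted p 0.221) or CTNNB1 siRNA replicate 1 (0.42, adjusted p 0.134) the siRNA rise was not called. Of 9 genes of MAPK feedback and the immediate early response, 2 rose and 2 fell with ICG-001. With the siRNA 4 rose and 1 fell. Over all genes the shares were 9.22% and 11.3%, and 6.19% and 5.83%. SPRY1, an inhibitor of receptor kinase signalling, fell with both (-0.93 and -0.75), while HBEGF (1.22 and 0.28) and FOSL2 (0.70 and 0.28) rose with both. With only the 10 arrays in the fit, the siRNA rises of HBEGF and FOSL2 were not called (adjusted p 0.0634 and 0.0682). Of 10 duct and epithelial markers, 3 rose and 3 fell with each agent (in the deposited scaling 3 and 1 with ICG-001, and 1 and 3 with the siRNA). Among all genes 9.22% rose and 11.3% fell with ICG-001, and 6.19% rose and 5.83% fell with the siRNA. S100P, a calcium-binding protein raised in pancreatic cancer and named after its values were seen, rose with ICG-001 (2.74) and fell with the siRNA (-0.53), whereas the claudin CLDN3, chosen in the same way, was called down with both (-0.62 and -1.32), its drug change not in the deposited scaling (-0.20, adjusted p 0.131).

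**Figure D4:**
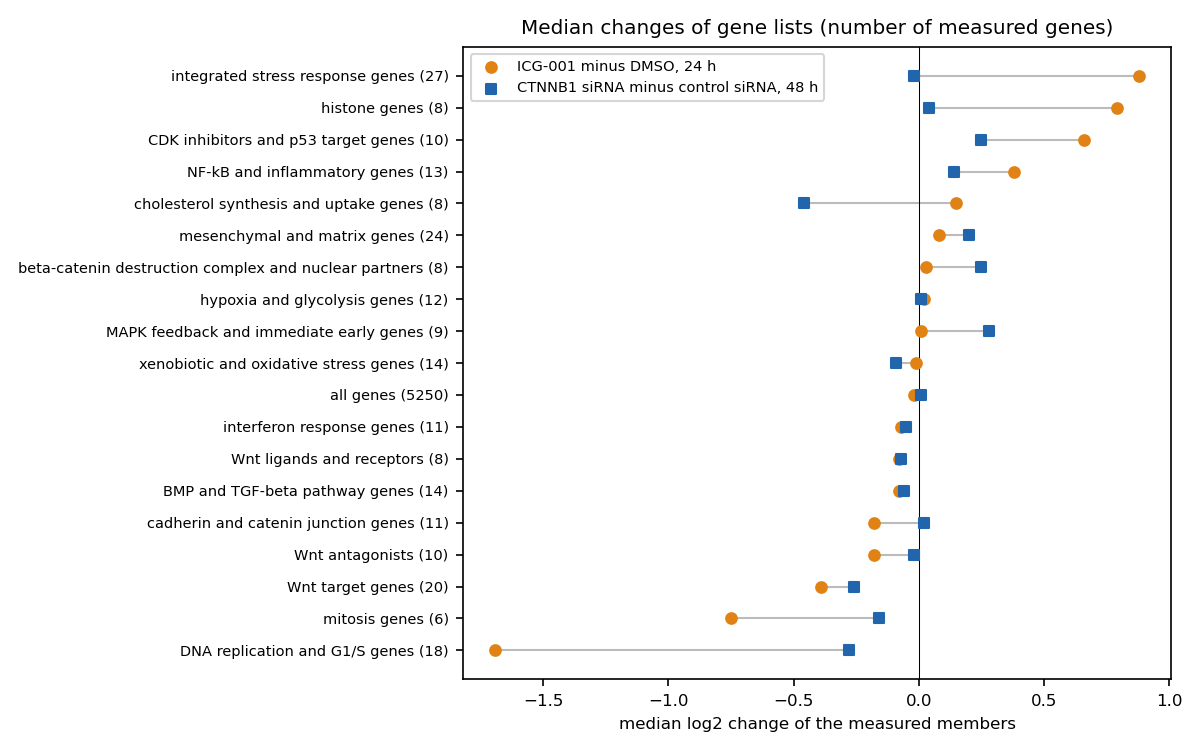
For each gene list the circle marks the median log2 change of its measured members with ICG-001 at 24 h and the square that with CTNNB1 siRNA at 48 h, with the number of measured genes in brackets. The markers lie farthest apart for the replication list (-1.69 and -0.28) and the stress list (0.88 and -0.02). For the Wnt targets they lie at -0.39 and -0.26, and other lists lie closer together, such as hypoxia and glycolysis (0.02 and 0.01). A small distance between medians does not mean that single genes moved alike.

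The 6 h arrays gave the drug change of each class at an earlier time, against DMSO arrays of that time. ICG-001 called 724 genes at 6 h (13.8%; 5.56% up and 8.23% down). Of the 102 genes that rose with both agents, 60 were up at 6 h and 3 down, and of the 126 that fell with both, 96 were down and none up. Most genes moved in opposite directions had their 24 h drug direction at 6 h: 40 of the 54 that rose with ICG-001 at 24 h were up at 6 h and 2 down, and 42 of the 61 that fell were down and none up. With ICG-001 alone 115 of 193 were up and 152 of 233 were down in the matching direction. Of the genes moved by the siRNA alone, 2 were up and 10 down at 6 h among the 91 that rose with the siRNA, and 2 up and 7 down among the 56 that fell, in total near the 13.8% called over all genes. In the deposited scaling 67 of the 126 shared falls were down at 6 h and 8 up, as were 19 and 4 of the 61 opposite falls and 86 and 9 of the 233 with ICG-001 alone. BMP4 and RNF43 had reached their 24 h change by 6 h (-1.40 and -1.27), while MMP7, MYB and LGR5 were at -0.69, -1.0 and -0.96.

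**Figure D5:**
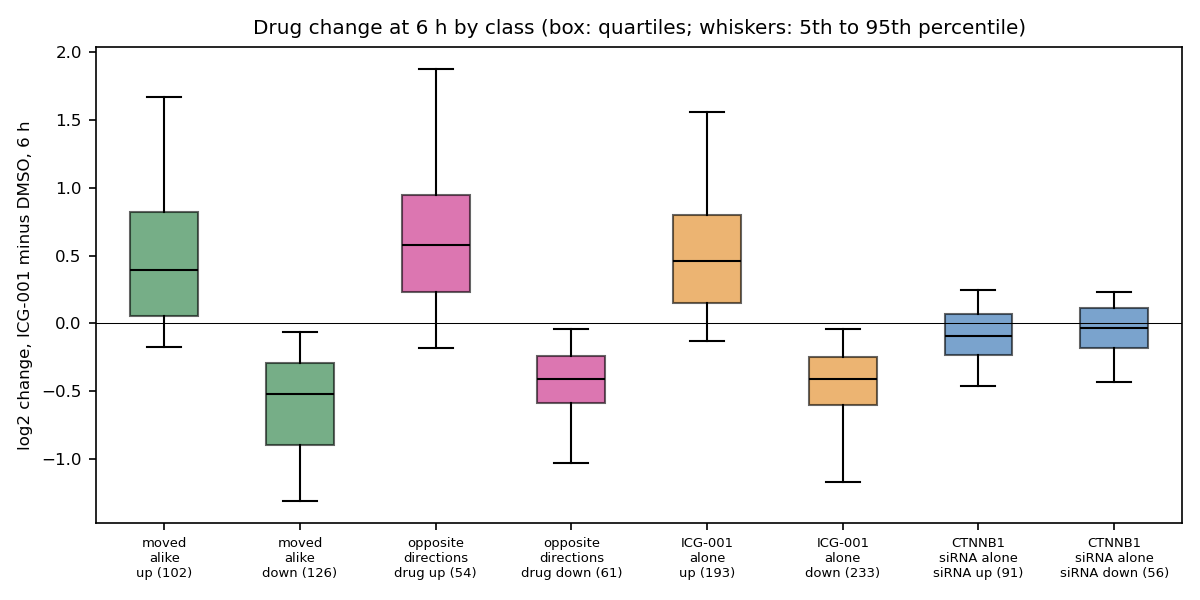
Boxes give the quartiles, the line the median and whiskers the 5th to 95th percentile of the log2 change between ICG-001 and DMSO at 6 h, for the genes of each class and direction (number of genes in brackets). Medians are 0.39 and -0.52 for genes that rose and fell with both agents, and -0.09 and -0.03 for those that rose and fell with the siRNA alone.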

How the data were processed

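Total RNA of AsPC-1 cells was biotin-labelled and hybridised to Affymetrix arrays, per the labels' protocols. The deposited values are linear intensity values per probe set, from 0.55 to 19346.51. How probes were summarised and arrays scaled is not given in the sources used here. In all, of 9554 probe sets, 6442 were listed with 1 gene and 3112 with several or none; the latter were left out. Of the 6442, 6432 were matched to current RefSeq symbols (GRCh38.p14).

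To each intensity 16 was added before log2. Array medians differed by 0.64, above a limit of 0.5, so all 16 arrays were quantile normalized, and the brightest probe set per gene was kept. Printed intensities are as deposited and printed changes are log2 after normalization. Deposited intensities of the 24 h drug arrays and siRNA arrays lie on different overall levels, so changes, not levels, were compared. Array median intensities were 20.6 to 28.6 in the drug experiment and 12.7 to 13.1 in the siRNA experiment, and the lowest correlation between replicates was 0.967. The number of arrays limits the precision.

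Changes and their difference were tested in 1 model with a term per group over all 16 arrays (limma 3.58.1 with an intensity trend, R 4.3.3; 10 residual and 7.84 prior degrees of freedom), two-sided, with Benjamini-Hochberg adjustment over 5250 genes. Scripts were tested on simulated data. Alternatives changed the scaling, the number added, the filter on dim genes, the arrays fitted, the trend, the probe set rule, the size threshold, a replicate block and each array in turn. Per class and direction the genes with the largest smaller change (up to 10), or the largest change with 1 agent (6 for ICG-001, 8 for the siRNA), are named if arrays do not overlap and the higher group lies above the 25th percentile; the members of the 5 Wnt and junction lists, CDKN1A and BIRC5 are named besides. For other lists up to 3 genes with the largest shared change and up to 3 with the largest difference were eligible. The members and lists were chosen with earlier results of these data known. Lists are described by counts and medians without a test.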

Additional observations from a re-analysis of the deposited data

Results flagged for a closer look

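For 5 genes called with both agents, the ICG-001 changes at 6 h and 24 h were both called, with opposite signs. The change over time was called for each. The same arrays had picked these genes, however, which largely fixes that outcome. The 24 h change minus the 6 h change was 0.51 for the transporter ABCC3, 0.60 for the collagen COL13A1, 0.74 for the prolyl hydroxylase P4HA2, 0.79 for the protease PRSS23 and 0.83 for the immunoproteasome subunit PSMB9. The adjusted p of these differences were 5.94e-04, 1.69e-04, 5.49e-06, 4.00e-05 and 5.27e-05 in the same order (limma). The 6 h changes were -0.30, -0.38, -0.50, -0.23 and -0.34, and the 24 h changes 0.21, 0.21, 0.24, 0.56 and 0.49. In the deposited scaling ABCC3 was up at 6 h as well (0.21), and the other 4 lay between -0.14 and -0.04, so the fall at 6 h rests on the scaling.

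Among probe sets without 1 named gene, which entered no class, 37 moved alike with both agents (18 up and 19 down) and 14 moved in opposite directions (9 up with ICG-001 and 5 down). Their genes were not analysed here.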

How the results depend on the processing

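Alternatives changed 1 choice at a time. Against 631 siRNA genes, array median centring gave 414 and a fit of each experiment by itself 289. Against 147 genes with the siRNA alone, the deposited scaling gave 76, median centring 66, quantile normalization within each experiment 78, a fit of the 10 arrays 89 and each experiment by itself 31; the last also gave 70 genes in opposite directions, against 115. These last 2 settings estimated the spread from fewer arrays. Asking for at least 2-fold besides the adjusted p left 254 drug genes, 109 siRNA genes, 328 differences, 22 genes moved alike, 5 opposite, 206 with ICG-001 alone and 57 with the siRNA alone. The remaining totals over both directions stayed within 1.5 times the reported ones. Some counts by direction moved more in the deposited scaling. There 145 genes rose and 95 fell with both agents, against 102 and 126. Genes down with ICG-001 alone were 139 against 233, and genes down with ICG-001 but up with the siRNA were 34 against 61.

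Leaving out each of the 10 arrays in turn gave 934 to 1131 drug genes, 489 to 667 siRNA genes, 734 to 850 differences, 167 to 249 genes moved alike, 82 to 112 opposite, 371 to 474 with ICG-001 alone and 128 to 184 with the siRNA alone. Genes that kept their class without each array were 127 of 228 moved alike, 48 of 115 opposite, 246 of 426 with ICG-001 alone and 48 of 147 with the siRNA alone. Of 216 changes of 165 named genes, 160 were called throughout. Of the 4536 values of the alternatives, 232 were no longer past the threshold and 2 were reversed: the drug change of DSG3 was 0.10 in the deposited scaling (adjusted p 0.266), and that of PKP4 was 0.55 with the mean of its probe sets (adjusted p 0.00293), whose 2 probe sets gave -0.64 and 1.74.

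Same-numbered arrays did not deviate together (correlations of 0.09, 0.04 and -0.01 for the drug and 0.01 for the siRNA), so replicate numbers were not taken as pairs. With the replicate number as a block, 1093 drug genes, 656 siRNA genes, 878 differences, 234 genes moved alike, 113 opposite, 428 with ICG-001 alone and 171 with the siRNA alone were called.

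Of the 147 genes with the siRNA alone, 32 had both drug group means under 16 and 21 both siRNA group means. Among the 3886 genes called by neither agent these counts were 1346 and 2303. Among the other classes they were 1 and 3 of the 228 moved alike, 0 and 2 of the 115 opposite and 0 and 20 of the 426 with ICG-001 alone. Of the 4 classes, low signal in the drug experiment was thus largely confined to the siRNA alone. Of 936 genes with more than 1 probe set, 110 were called in both comparisons, and 1 of these had a probe set called the other way with ICG-001.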
